A study of Mus musculus with 4 samples.

Results

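The genes described here are the 4 MEF2 genes (Mef2a, Mef2b, Mef2c and Mef2d) and the 4 class IIa histone deacetylase genes (Hdac4, Hdac5, Hdac7 and Hdac9) of the mouse. They were chosen by name with earlier results of these data known, so shares set beside those of all genes are descriptions only. They make up 8 of 21896 protein-coding genes in the gene table used. Their peaks are those touching the gene model or 20 kb on either side of it, which gave 91 of the 41639 peaks of the series-wide list. The study pulled down ATF4, a DNA-binding factor that cells raise under amino acid and protein-folding stress, from chromatin of heart ventricle of mice aged 4 weeks. The labels give 2 ATF4 pull-down samples, here replicates 1 and 2, and 2 input samples of chromatin that was not pulled down, whose values are not analysed here. Chromatin was caught on streptavidin beads, and the antibody field of the pull-down samples reads AAV without explanation. The labels do not say how the pulled-down ATF4 was produced or tagged. The titles of the pull-down samples hold the letters bio, which are not explained. Genotype, strain, sex and the number of animals are not given in the labels used here. The labels do not state that the samples came from separate animals, so SDs measure only the spread between these samples.

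MEF2 proteins are DNA-binding factors of the MADS-box family that drive muscle genes in developing and adult heart. Class IIa deacetylases have little enzyme activity of their own on histones, and act by binding MEF2 on DNA and bringing in corepressors. Kinases that answer to calcium and stress phosphorylate these deacetylases, 14-3-3 proteins then hold them in the cytoplasm, and MEF2 is freed. In the heart this switch is known for its part in hypertrophic growth.

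The authors deposited 78746 peaks for replicate 1, 88812 for replicate 2 and 41639 in the series-wide list. The strength of a peak is its fold enrichment over a constant background, a value of the authors' peak caller and not a ratio to input. Series-wide folds are the higher of both replicates at the peaks of these genes, so replicate values are given beside them. Sequencing depth is unknown, since the lists hold no read counts. As a check of the tissue, all 8 cardiomyocyte genes of a marker list (such as Tnnt2 and Myh6) carried a series-wide peak no more than 1 kb from a gene end. Such peaks lay at 1 of 6 endothelial genes, 3 of 6 fibroblast genes, 3 of 6 smooth muscle and pericyte genes, 1 of 6 immune genes and 1 of 6 neuronal genes, and at 34.8% of all protein-coding genes. Replicates 1 and 2 gave 3 and 3 endothelial genes, 4 and 6 fibroblast genes, 5 and 4 smooth muscle and pericyte genes, 1 and 2 immune genes and 2 and 2 neuronal genes, against 48.1% and 50.2% of all genes. A peak in ventricle tissue does not say which cell type it came from, and cannot be told apart from a weaker peak in more cells. With 2 samples of 1 condition no test between groups is possible, so values are described beside the same values over all protein-coding genes.

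All 8 genes had series-wide peaks in the gene body with 20 kb, as did 68.1% of all protein-coding genes. Mef2b had 5 peaks, Hdac5 and Hdac7 had 9 each, Mef2a and Mef2d had 11 each, Mef2c and Hdac9 had 12 each, and Hdac4 had 22. Of all genes 3.76% had 9 or more, and 7 of these 8 did, but longer genes hold more peaks and these models run from 14.7 kb (Mef2b) to 870 kb (Hdac9). The strongest series-wide peak reached 20-fold at all 8 genes, against 29.8% of all genes, of which some had no peak. A window with more peaks also has more places for a high one. Over the genes with a peak in this window, the median fold of the strongest was 18.5. The strongest peak reached 40-fold at Mef2a and Mef2b, against 5.94% of all genes. That of the Mef2b window lies inside a neighbouring gene and had 35.0 fold in replicate 1 and 41.7 in replicate 2. The limits of 9 peaks, 20-fold and 40-fold lie at or just under values of these genes. Hdac5 and Hdac7 had exactly 9 peaks each, and the strongest peak of Hdac5 had 21.0 fold. The contrasts with all genes therefore depend on where these limits were set. Over the 91 peaks the median series-wide fold was 12.9, against 13.7 over all series-wide peaks, and 13 of the 91 (14.3%) were among the 20% of highest fold (21.5 and above). The genes thus held many peaks of ordinary strength and a few strong ones.

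**Figure D1:**
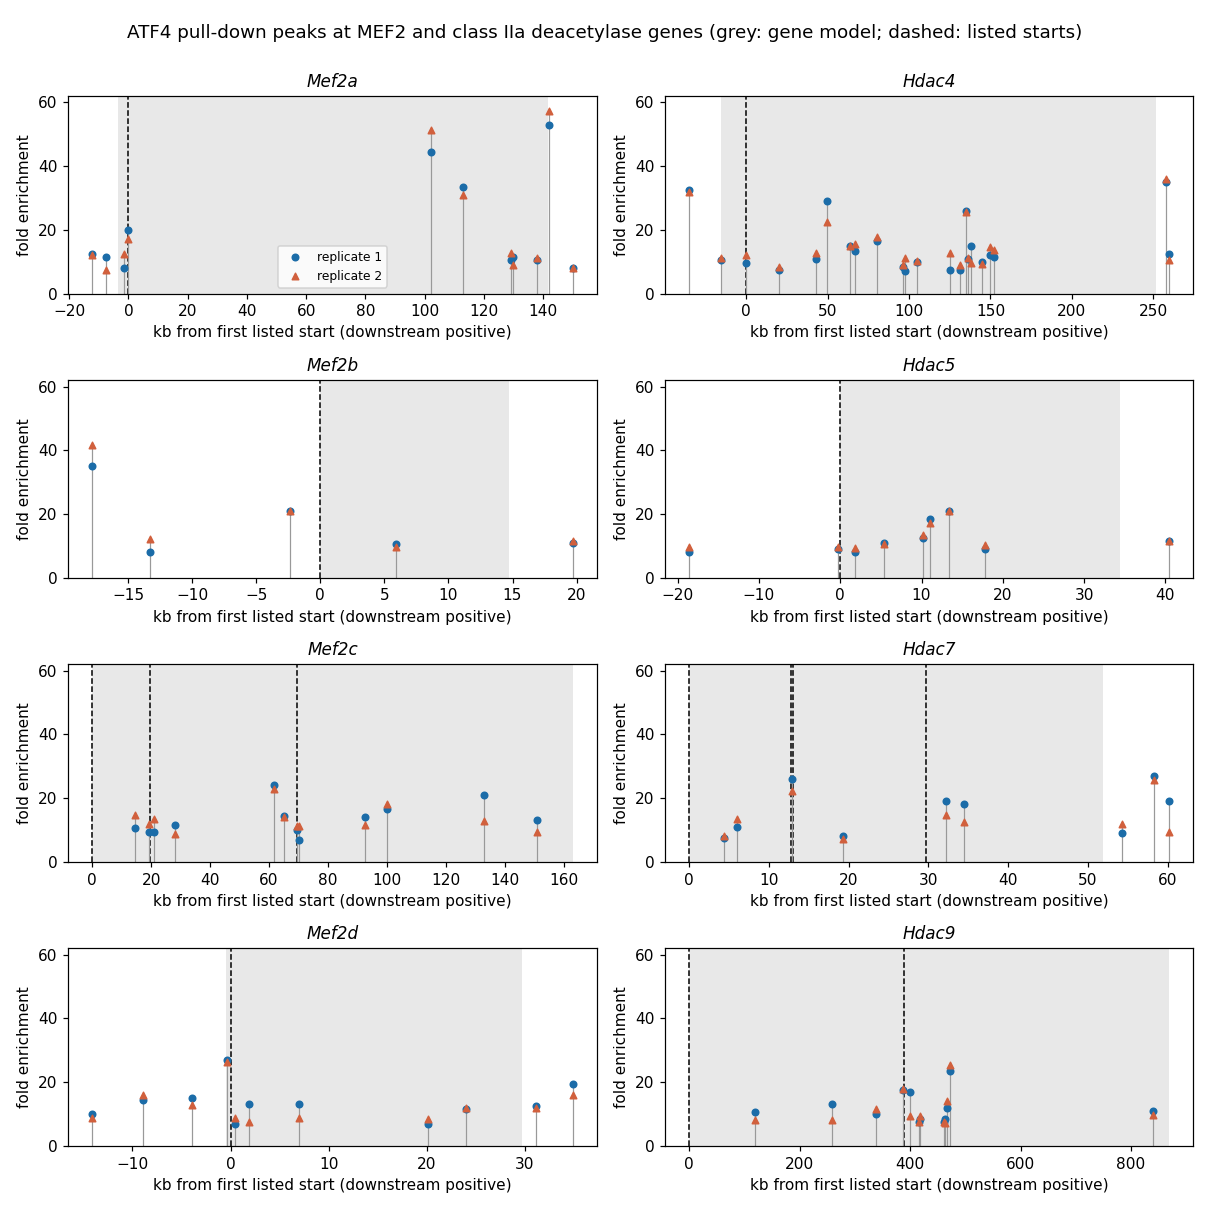
Fold enrichment of each series-wide peak (vertical axis) in replicate 1 (circles) and replicate 2 (triangles) against the distance of its summit from the first listed start of the gene in kb (horizontal axis), 1 panel a gene. Grey marks the gene model and dashed lines the listed starts; the highest points are at the 3′ end of Mef2a, at 53.0 and 57.2 fold, and peaks of Hdac9 gather near its inner start.

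Gene starts were examined first, because the ends of a gene model can miss starts that lie inside it. RefSeq's promoter table for GRCm38.p6 lists 14 starts for the 8 genes, with 3 for Mef2c, 4 for Hdac7, 2 for Hdac9 and 1 for each other gene. Either end of the model had a series-wide peak no further than 1 kb away at 4 of the 8 genes (34.8% of all genes), with 4 genes in the replicate 1 list (48.1% of all genes) and 5 in that of replicate 2 (50.2%). At the 5′ end of the model it was 3 of 8, Mef2d, Hdac4 and Hdac5 (32.9% of the 17491 genes with a listed start). Counting listed starts instead, 7 of 8 genes had a peak within 1 kb (35.4% of genes). The gene without one was Mef2b. The same count of 7 held for peaks that cover a listed start (31.0% of genes), in the replicate 1 list (40.5%) and in the replicate 2 list (41.6%).

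At Mef2c, Hdac7 and Hdac9 the 5′ end of the model lacked a series-wide peak in the 1 kb window, and a start inside the gene had one. This pattern was found in 11.1% of the 2761 genes with 2 or more listed starts, of which 48.1% had a peak at any listed start. A gene with more listed starts has more places where a peak can count. With the 20% of peaks of highest fold, 2 of the 8 genes, Mef2d and Hdac7, had a peak within 1 kb of a listed start (5.44% of genes).

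**Figure D2:**
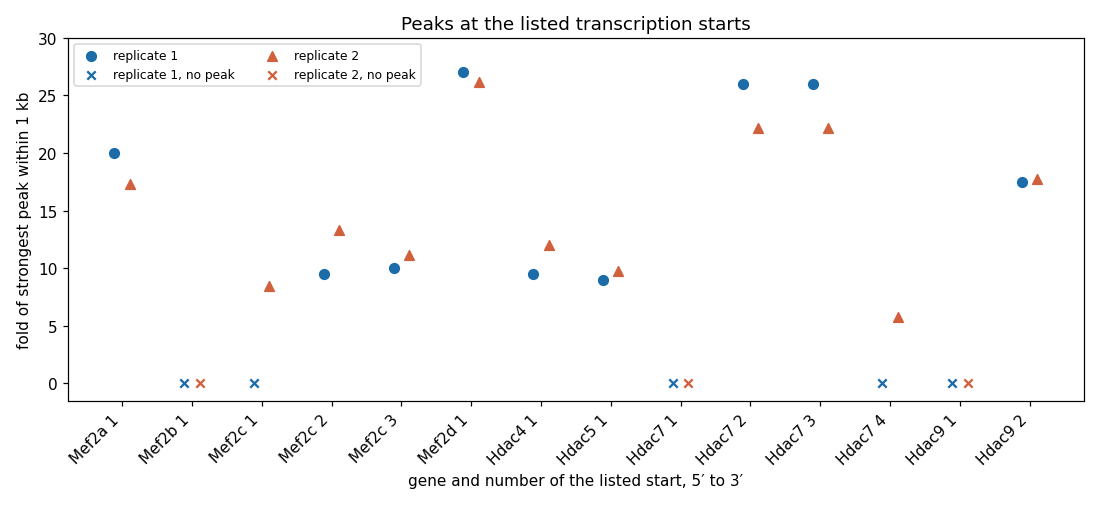
Fold of the strongest peak within 1 kb of each listed start (vertical axis) in replicate 1 (circles) and replicate 2 (triangles), with a cross at 0 where that replicate list has no peak; starts are numbered 5′ to 3′ (horizontal axis). The only start of Mef2b and the outer starts of Hdac7 and Hdac9 have crosses in both replicates. Mef2d 1 and the neighbouring starts Hdac7 2 and Hdac7 3, which share a peak, stand highest.

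Among the MEF2 genes, Mef2d carried the strongest peak at a start. Mef2d encodes a MEF2 factor that is known for its part in the stress response of the adult heart. Its start peak on chromosome 3 (88141422 to 88142469, mm10) had a fold of 27 in replicate 1 and 26.2 in replicate 2 (26.6 ± 0.6, SD, n = 2). The summit lay 334 bp before the listed start. Another peak, 209 bp past the start, was weaker, with 7.0 and 8.87 (7.93 ± 1.32, SD, n = 2). The whole 30.2 kb gene with its flanks was dense in peaks, with 3 upstream of the start peak and 7 past it. The series-wide density was 15.7 peaks per 100 kb, which 0.779% of the 16952 genes under 50 kb reached. The 3 upstream peaks had 9.43 ± 0.803 fold at 14.1 kb before the start, 15.2 ± 1.03 at 8.91 kb and 13.9 ± 1.52 at 3.93 kb (SD, n = 2). A peak 34.9 kb past the start, with 17.7 ± 2.51 fold (SD, n = 2), covers the listed start of the noncoding gene 1700113A16Rik and may not belong to Mef2d.

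The stretch of 250 bases before the Mef2d start lies wholly inside that peak, and is shown because it is the strongest start peak of these genes. It is rich in G and C (73.2%). None of the motifs described further on is in it, so it has no capitals. It spans chr3:88142122-88142371 on the plus strand.
Mef2d start 1: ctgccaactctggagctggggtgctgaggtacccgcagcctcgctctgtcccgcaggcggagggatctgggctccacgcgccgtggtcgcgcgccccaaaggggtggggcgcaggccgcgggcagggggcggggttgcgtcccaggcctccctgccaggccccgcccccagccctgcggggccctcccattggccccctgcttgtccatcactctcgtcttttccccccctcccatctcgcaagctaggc

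Mef2a, the MEF2 gene best known for its product in adult heart muscle, had its strongest peak at the other end of the gene. A peak on chromosome 7 (67230118 to 67230857) had 53.0 fold in replicate 1 and 57.2 in replicate 2 (55.1 ± 2.95, SD, n = 2). Of all genes 0.904% had a series-wide peak this strong in the gene body with 20 kb. Mef2a is read from the minus strand, and this peak lies 306 bp beyond the 3′ end of its model. The 1 kb window at the 3′ end held a series-wide peak at 5.93% of genes with a listed start, and at 1 of these 8. The gene on the far side is Lysmd4, which is read from the plus strand, so the genes point towards each other. The peak lies 1650 bp from the end of Lysmd4, in the 2694 bp between both models. By the 1 kb window it is at the end of Mef2a only.

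At the Mef2a start itself a peak (67372729 to 67373807) had 20.0 and 17.3 fold (18.6 ± 1.92, SD, n = 2). This listed start is 3.6 kb inside the 5′ end of the model, and for that reason the window at the gene end missed it. The start peak was lower in both replicates than a pair of peaks inside the gene. These had 48.0 ± 4.89 fold at 102 kb past the start and 32.3 ± 1.75 at 113 kb (SD, n = 2). Between the first of them and the start lay 102 kb without a series-wide peak, in which replicate 1 had 5 peaks and replicate 2 had 4. The last 3 peaks before the 3′ end were weaker, at 10.2 to 11.7 fold as the mean of both replicates. A peak beyond the 3′ end, with 7.99 ± 0.0153 fold (SD, n = 2), covers a listed start of Lysmd4.

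Mef2c, needed for the looping heart of the embryo and also active in endothelium, neurons and immune cells, had 12 series-wide peaks, all inside the gene. Its first listed start lacked a series-wide peak in the 1 kb window, where replicate 2 alone had 1 with 8.42 fold. At the next start, 19.6 kb further in, a pair of peaks flanked the start and neither covered it. The first ended 176 bp before the start and had 9.5 and 12.0 fold (10.7 ± 1.74, SD, n = 2). The other began 548 bp past it and had 9.5 and 13.3 fold (11.4 ± 2.69, SD, n = 2). Start number 3, 69.6 kb into the gene, was covered by a peak of 218 bp (83573414 to 83573631 on chromosome 13) with 10 and 11.1 fold (10.5 ± 0.764, SD, n = 2). A further peak began 300 bp past this start, with 7.0 and 11.1 fold (9.04 ± 2.89, SD, n = 2).

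The start peaks of Mef2c overlap in level, and all were lower than the strongest peak of the gene. That peak (83565641 to 83566555), 7052 bp before start number 3, had 24 fold in replicate 1 and 23.0 in replicate 2 (23.5 ± 0.673, SD, n = 2). Further in, a peak 133 kb past the first start differed more between replicates, with 21.0 and 12.9 fold (16.9 ± 5.76, SD, n = 2). Replicate 2 also had a peak of 14.2 fold inside Mef2c (83591882 to 83592185) that neither replicate 1 nor the series-wide list holds. The 20 kb on either side of Mef2c held 0 series-wide peaks, 0 peaks of replicate 1 and 1 of replicate 2. The window edge matters here, because a peak 22.4 kb upstream had 25.5 and 25.3 fold (25.4 ± 0.166, SD, n = 2), higher than any peak inside the gene. The bases before start number 3 are given as the inner start that a peak covers: 77.2% of them lie in the peak, at chr13:83573357-83573606 on the plus strand, with none of the motifs and no capitals.
Mef2c start 3: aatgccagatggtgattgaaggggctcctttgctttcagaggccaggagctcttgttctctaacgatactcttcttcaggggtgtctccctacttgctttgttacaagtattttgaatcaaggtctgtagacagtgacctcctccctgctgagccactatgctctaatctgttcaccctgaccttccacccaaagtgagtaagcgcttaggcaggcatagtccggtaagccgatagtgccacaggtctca

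Mef2b, the most divergent of the MEF2 genes and best known in B cells, was the only member without a peak at a listed start in the series-wide list or in either replicate list. Its model on chromosome 8 (70152761 to 70167488) is 14.7 kb long and held a single series-wide peak, 5657 bp past the start, with 10.5 and 9.75 fold (10.1 ± 0.529, SD, n = 2). The closest upstream peak ended 2214 bp before the start and had 21.0 and 20.8 fold (20.9 ± 0.119, SD, n = 2). Both peaks also lie inside Gm45929, a model that begins with Borcs8 at 70139499 and ends on the last base of Mef2b. The start shared by Borcs8 and Gm45929 was covered by a peak that also covers a start of Rfxank, with 8.0 and 12.0 fold (9.98 ± 2.81, SD, n = 2). The strongest peak of the Mef2b window, with 35.0 and 41.7 fold (38.3 ± 4.71, SD, n = 2), lies inside Rfxank and within 1 kb of an end of Nr2c2ap, 17.5 kb upstream of Mef2b. Of the 5 peaks in this window, 3 lay within 1 kb of an end of another protein-coding gene. On the gene model alone the highest fold of Mef2b was 10.5.

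Of the deacetylase genes, Hdac7 had the strongest peak at a start. Hdac7 encodes a class IIa deacetylase known from endothelium and developing T cells. Its outermost start, at the 5′ end of the model, had no peak in any list. A pair of starts close together, 12.7 kb and 13.0 kb further in, shared a peak (97831351 to 97831735 on chromosome 15) that covers the inner of the pair. It had 26.0 fold in replicate 1 and 22.2 in replicate 2 (24.1 ± 2.71, SD, n = 2). The summit lay 70 bp before the covered start. At the last start, 29.6 kb in, a peak of 5.76 fold was present in replicate 2 alone. Peaks past this start, at 16.8 ± 3.09 and 15.2 ± 3.95 fold (SD, n = 2), were higher in replicate 1 than in replicate 2. The 3 peaks beyond the 3′ end lie inside or at an end of Slc48a1, a haem transporter gene whose model overlaps that of Hdac7. The highest of them had 27 and 25.7 fold (26.4 ± 0.914, SD, n = 2) and cannot be assigned to Hdac7.

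Hdac9 encodes a deacetylase known for restraining growth of the heart under stress, and its model spans 870 kb on the minus strand of chromosome 12. The outer start had no peak in any list. The other listed start, 388 kb inside the model, was covered by a peak (34528817 to 34529526) with 17.5 and 17.7 fold (17.6 ± 0.162, SD, n = 2), and its summit lay 119 bp before the start. Of the 12 series-wide peaks of Hdac9, 1 covered the inner start and the next 7 had summits within 84.4 kb past it. The strongest, 84.4 kb past the inner start, had 23.5 and 25.3 fold (24.4 ± 1.25, SD, n = 2). A peak 11441 bp past the start was 17.0 fold in replicate 1 and 9.31 in replicate 2 (13.2 ± 5.44, SD, n = 2). Before the last peak lay a stretch of 366 kb without a series-wide peak, in which replicate 1 had 3 peaks and replicate 2 had 2. The 20 kb on either side of Hdac9 held 0 peaks in all 3 lists.

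The stretches before the starts of Hdac7 and Hdac9 are given to set an outer start without a peak beside inner ones with a peak. Each holds 250 bases in the direction of the gene, and none has capitals because no motif was found. Hdac9 start 1 spans chr12:34917096-34917345, Hdac9 start 2 chr12:34528890-34529139 and Hdac7 start 3 chr15:97831496-97831745, all on the minus strand. The Hdac9 stretches are alike in base composition, at 44.4% and 43.6% G and C, with 0 and 2 CpG pairs; that of Hdac7 start 3 has 74.0% and 25. Peaks covered 0% of the bases shown for Hdac9 start 1, 100% of those for Hdac9 start 2 and 96.0% of those for Hdac7 start 3.
Hdac9 start 1: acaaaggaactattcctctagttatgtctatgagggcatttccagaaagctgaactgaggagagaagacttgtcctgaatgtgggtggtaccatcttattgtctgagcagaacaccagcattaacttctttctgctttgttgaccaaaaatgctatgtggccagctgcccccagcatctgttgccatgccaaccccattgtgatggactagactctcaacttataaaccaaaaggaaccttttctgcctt
Hdac9 start 2: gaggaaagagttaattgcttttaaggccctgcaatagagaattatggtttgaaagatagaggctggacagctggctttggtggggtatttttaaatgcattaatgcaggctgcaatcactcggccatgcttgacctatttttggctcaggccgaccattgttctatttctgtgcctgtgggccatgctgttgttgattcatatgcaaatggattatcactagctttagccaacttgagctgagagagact
Hdac7 start 3: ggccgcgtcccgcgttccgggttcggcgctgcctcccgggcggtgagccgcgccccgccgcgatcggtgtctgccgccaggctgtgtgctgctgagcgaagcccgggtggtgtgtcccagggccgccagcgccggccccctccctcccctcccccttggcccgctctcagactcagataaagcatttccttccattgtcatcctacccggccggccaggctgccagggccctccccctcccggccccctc

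Hdac4, whose product is a main target of CaM kinase II signalling in heart, had the most peaks. Its model of 267 kb on the minus strand of chromosome 1 held 18 of the 22 series-wide peaks of its window. Its density of 7.17 peaks per 100 kb was reached by 3.44% of the 989 genes over 200 kb. The listed start was covered by a peak (92180204 to 92181246) with 9.5 fold in replicate 1 and 12.0 in replicate 2 (10.7 ± 1.74, SD, n = 2). The 5′ end of the model, 15.4 kb further upstream, had a peak at the same level, 10.8 ± 0.411 fold (SD, n = 2).

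The strongest Hdac4 peaks were in the flanks. One lay 5703 bp beyond the 3′ end (91921967 to 91923076), with 35.0 and 35.9 fold (35.5 ± 0.638, SD, n = 2). The other lay 19.6 kb upstream of the model, just inside the window, with 32.5 and 31.9 fold (32.2 ± 0.415, SD, n = 2). Inside the gene the highest peaks had 25.9 ± 0.207 and 25.8 ± 4.52 fold (SD, n = 2). Within gaps of at most 15 kb, 8 peaks gathered in 27.3 kb and 5 more in 38.3 kb. From the last peak inside the gene to the one beyond the 3′ end lay 105 kb without a series-wide peak, in which replicate 1 had 6 peaks and replicate 2 had 4.

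Hdac5 encodes a deacetylase known, like that of Hdac9, for restraining growth of the heart under stress. The peak over its start on chromosome 11 (102230090 to 102230572) was the weakest start peak of the 7 genes, with 9.0 and 9.75 fold (9.38 ± 0.531, SD, n = 2). Stronger peaks followed inside the gene. The highest had 20.9 ± 0.119 fold at 13.4 kb past the start and 17.9 ± 0.858 at 11.1 kb (SD, n = 2). Over its 34.4 kb model 7 peaks were present, and the density of 12.1 per 100 kb with 20 kb flanks was reached by 2.31% of genes under 50 kb. The other 2 peaks of the window lay at neighbours, 1 at an end of Hrob and 1 over a start of G6pc3.

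Motifs were searched in the 250 bases before each of the 14 listed starts, on both strands. TGATGNAA, the core of the element bound by ATF4 with C/EBP partners, was in 0 of 14, against 3.18% of 21262 promoters of protein-coding genes. TGACGTCA, the full cyclic AMP response element, was also in 0 of 14, against 1.92%. Its shared part TGACG was in 1 of 14, at Hdac4, against 20.2%. Any TGACGTCA holds TGACG, so these are not separate. The MEF2 element, which was searched by its consensus of 10 letters, was in 1 of 14, at Hdac5, against 2.61%. No match says only that these letters are not in this window.

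Among all promoters the 6493 overlapped by a series-wide peak held TGACG in 32.7%, and the 14769 others in 14.7%. TGACGTCA was in 3.63% and 1.17%, while TGATGNAA was in 2.05% and 3.68%, so the latter was rarer where peaks lay. Promoters with a peak also held more CpG pairs, at a median of 17 against 5 in 250 bases, and TGACG contains such a pair; the part of base composition was not tested.

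The sequences of the pair with a match are given because they hold the only matches, with the matched letters in capitals. Both lie wholly inside the start peak and on the minus strand, at chr1:92180342-92180591 for Hdac4 and chr11:102230173-102230422 for Hdac5. The last base of each TGACG of Hdac4 lies 99 and 47 bases before the start, and that of the MEF2 element of Hdac5 lies 11 bases before its start. A match is a description and does not show that a factor binds there.
Hdac4 start 1: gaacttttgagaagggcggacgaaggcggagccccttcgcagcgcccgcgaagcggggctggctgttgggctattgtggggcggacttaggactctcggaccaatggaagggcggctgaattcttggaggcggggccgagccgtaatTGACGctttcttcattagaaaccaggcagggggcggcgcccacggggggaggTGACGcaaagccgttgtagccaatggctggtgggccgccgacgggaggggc
Hdac5 start 1: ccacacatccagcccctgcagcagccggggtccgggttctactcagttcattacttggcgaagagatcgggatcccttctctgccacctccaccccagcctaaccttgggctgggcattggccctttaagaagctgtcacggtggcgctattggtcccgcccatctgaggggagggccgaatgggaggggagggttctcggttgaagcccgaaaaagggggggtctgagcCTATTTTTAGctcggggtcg

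The order of the start peaks was compared over both replicates. Mef2d (26.2 to 27) and Hdac7 (22.2 to 26.0) were highest, with values that did not overlap and means that differed by less than the SD of Hdac7. Mef2a (17.3 to 20.0) and Hdac9 (17.5 to 17.7) came next with overlapping values. Those of Hdac4 (9.5 to 12.0), Mef2c at its covered start (10 to 11.1) and Hdac5 (9.0 to 9.75) were lowest. Hdac4 overlapped both others, and Mef2c and Hdac5 did not overlap. Mef2c by its strongest peak within 1 kb of a listed start had 9.5 to 13.3, which overlaps Hdac5. The median series-wide fold of the strongest peak within 1 kb of a listed start was 13.3 over the 6195 genes with one. Each family had a member in each of these 3 levels.

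All 91 series-wide peaks overlapped a peak in both replicates, against 97.6% of all series-wide peaks. The name of the series-wide list refers to IDR, a filter for peaks that recur between replicates, so this overlap is largely built in. Their fold in replicate 2 was 0.49 to 1.72 times that in replicate 1, with a median of 1.01, against 1.03 over all series-wide peaks. It was higher in replicate 2 at 49 peaks and in replicate 1 at 41. The lowest ratio was at a peak by Slc48a1 in the Hdac7 window (19.0 and 9.31 fold) and the highest at a peak inside Hdac4 (7.5 and 12.9 fold). The replicate lists held more peaks at these genes, with 157 in replicate 1 and 164 in replicate 2. Of these, 64 and 68 had no series-wide partner, with folds of 5.5 to 10.5 and 5.32 to 14.2. Folds below 7.5, the lowest series-wide fold, were continued by steps and not read from matched peaks. The whole replicate lists, of 78746 and 88812 peaks, were likewise longer than the series-wide list of 41639. The share without a partner was not counted over them, so these counts are not read as particular to these genes.

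**Figure D3:**
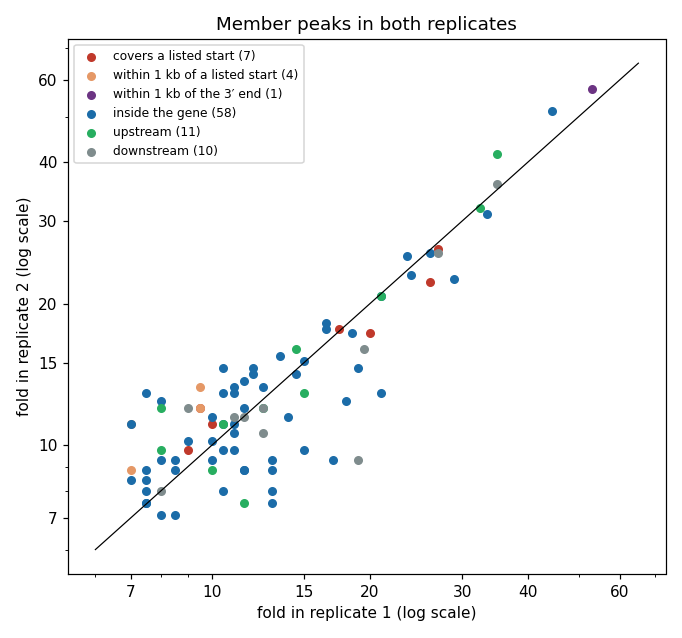
Fold in replicate 2 (vertical axis) against fold in replicate 1 (horizontal axis), both on log scales, for the 91 series-wide peaks, coloured by position, with a line of equal values. Points lie on both sides of the line and scatter most below 20 fold; the highest is the 3′ peak of Mef2a.

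By position, 7 of the 91 peaks covered a listed start, 4 more lay within 1 kb of one, 1 lay at a 3′ end, 58 (63.7%) lay elsewhere inside a gene, 11 upstream and 10 downstream. The peak at the 5′ end of the Hdac4 model counts as upstream here, since its listed start lies further in. These shares were not counted over all series-wide peaks, and the part of the window and of gene length in them was not tested. Exons and introns were not told apart. The median series-wide fold was 17.7 over the 7 peaks on a start and 12.9 over the 58 inside genes. The latter ranged from 7.54 at Hdac9 to 51.4 at Mef2a. Of the 91, 7 lay within 1 kb of an end of another protein-coding gene.

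Since longer genes hold more peaks, counts were also given per 100 kb and compared among genes of similar length. For Mef2a, Mef2c and Hdac7, of 50 to 200 kb, it was 5.94, 5.91 and 9.8 peaks per 100 kb, against a median of 1.98 over 3955 genes of that length. Of those genes 10.1%, 10.2% and 2.2% reached these values. Mef2b had 9.14, reached by 6.52% of genes under 50 kb, whose median was 2.04. Of the 5 Mef2b peaks only 1 lay on the gene model, where the density was 6.79, and most of the others lay at ends of neighbouring genes. Hdac9 had 1.32, close to the median of 1.09 for genes over 200 kb, and 45.1% of these reached it. Hdac9 was the member nearest to other genes of its length, and Mef2d the farthest.

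**Figure D4:**
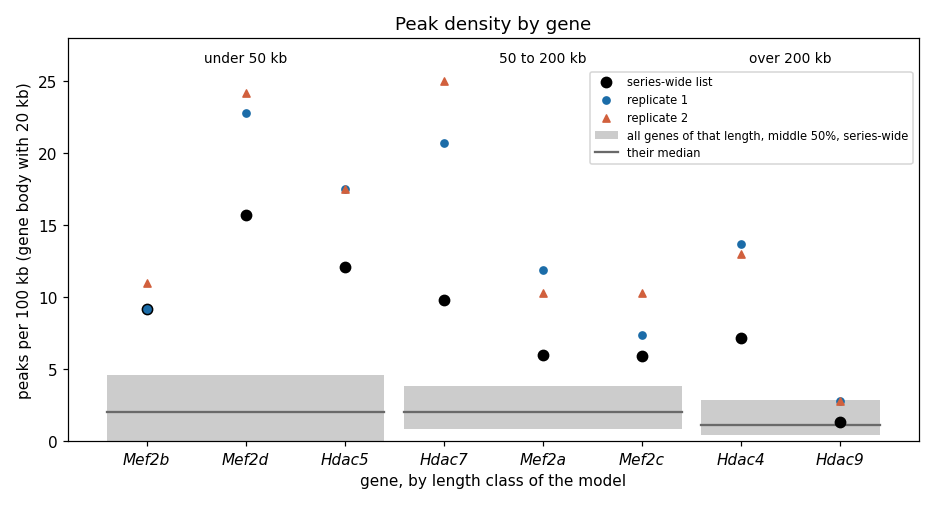
Peaks per 100 kb of gene body with 20 kb (vertical axis) for each gene (horizontal axis, grouped by model length) in the series-wide list (black) and in replicates 1 (circles) and 2 (triangles). Grey bands show the middle 50% and lines the median of all protein-coding genes of that length in the series-wide list. Of the genes, 7 lie above the band and Hdac9 lies inside it. For Mef2b, 1 of the 5 series-wide peaks lies on the gene model.

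Genes that act with MEF2 and class IIa deacetylases were taken from 7 lists of 55 genes in all, chosen with earlier results of these data known. Of these genes, 34 (61.8%) carried a series-wide peak in the 1 kb windows at the gene ends, where 34.8% of all genes had one. Kinase genes that act on class IIa deacetylases had a peak at 5 of 12. Replicates 1 and 2 gave 7 of 12 each, against 48.1% and 50.2% of all genes. Sik1, a salt-inducible kinase gene, had 34.3 ± 0.262 fold, Camk2d, of the main cardiac CaM kinase II, 25.5 ± 2.17, and Camk2g 10.5 ± 2.1 (SD, n = 2). Camk2a and Camk2b, known mainly from brain, were among those without a peak at a gene end, but had 2 and 7 series-wide peaks in the gene body with 20 kb. For 14-3-3 genes it was 3 of 7, with Ywhab at 16.2 ± 0.384, Ywhag at 14.6 ± 0.0898 and Ywhaq at 8.88 ± 1.24 fold (SD, n = 2). Replicate 1 gave 5 of 7 and replicate 2 gave 6 of 7, where 48.1% and 50.2% of all genes had a peak. Ywhae had a peak in each replicate list, and Sfn in that of replicate 2 alone. In the series-wide list the shares of kinase and 14-3-3 genes were the nearest of the 7 lists to that of all genes.

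Calcineurin, the calcium-driven phosphatase that opposes these kinases on other targets, and its brakes had peaks at 6 of 7 genes. Cabin1, whose product represses MEF2, had 12.6 ± 0.917 fold and Ppp3ca, of the catalytic subunit, 11.3 ± 0.963 (SD, n = 2); Ppp3cc had none in the series-wide list and 1 or more in each replicate list. Rcan1, a calcineurin inhibitor gene, had a series-wide fold of 14 and no replicate value. It lies at 92391951 to 92466169 on chromosome 16, where the last peaks of the replicate lists end at 90323288 and 90323272. Both replicate lists reach past the windows of all 8 members on their chromosomes.

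Corepressor complex genes had a peak at 3 of 5. Tbl1xr1 had 28.9 ± 0.801 fold, Tbl1x 28.1 ± 1.59 and Gps2 14 ± 2.18 (SD, n = 2), while Ncor1, of a corepressor itself, had one in each replicate list but none in the series-wide list. The count for this list was 4 in replicate 1 and 5 in replicate 2, where 48.1% and 50.2% of all genes had a peak. Genes of coactivators and MAP kinases acting on MEF2 had one at 4 of 7. They were led by Mapk7, which encodes the kinase ERK5 that activates MEF2, with 34.6 ± 4.37 fold, Mapk14, of p38 alpha, with 25.4 ± 0.833, and Myocd, the myocardin gene, with 21.0 ± 2.79 (SD, n = 2). The acetyltransferase genes Crebbp and Kat2b had one in each replicate list and none in the series-wide list, where each had a peak within 5 kb. Other deacetylase genes, of classes I, IIb and IV, had a peak at 4 of 7. Hdac10 had 17.0 ± 3.54 fold, Hdac6 9.32 ± 1.87 and Hdac2 9.9 ± 0.843 (SD, n = 2). Hdac11 had none in the 1 kb windows in any of the 3 lists, but 2 series-wide peaks in the gene body with 20 kb. Hdac3 had one in each replicate list and, in the series-wide list, only within 5 kb.

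Genes known as MEF2 targets had a peak at 9 of 10, the highest share of the 7 lists. Jun had 37.6 ± 0.124 fold, Abra, which encodes a muscle actin-binding activator, 23.8 ± 1.69, and Xirp2, of the intercalated disc, 18.1 ± 0.122 (SD, n = 2). Ppargc1a, the gene of a coactivator of mitochondrial biogenesis, had none at a gene end in the series-wide list or that of replicate 1, and one in that of replicate 2, but 32 series-wide peaks in the gene body with 20 kb, and 1 or more at a listed start. Many of these targets are heart muscle genes, and all 8 cardiomyocyte markers had peaks as well, so the part of tissue type in this share was not tested.

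**Figure D5:**
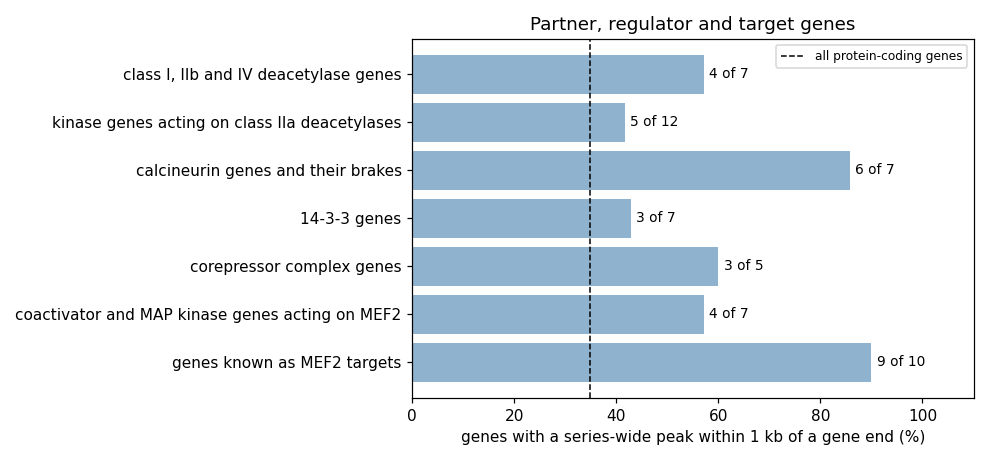
Percentage of genes with a peak in the 1 kb windows at their ends (horizontal axis, from 0) for the 7 lists (vertical axis), with the counts beside each bar and a dashed line at the 34.8% of all protein-coding genes. MEF2 targets (9 of 10) and calcineurin genes (6 of 7) have the longest bars, and kinase genes (5 of 12) the shortest.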

How the data were processed

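Each pull-down sample has a deposited peak list, and another deposited list covers the series. Per the submitters' processing notes the tools were Bowtie2, MACS2 and deepTools and the build mm10, whose roles and versions are not given in the sources used here. The authors' replicate lists give positions counted from 1, the summit, and a −log10 value of either a p-value or a q-value, which is not stated. The authors' series-wide list gives a fold, a ratio over background, and a summit offset, with starts counted from 0. Replicate folds were read from peaks with identical coordinates in both lists (17420 for replicate 1, all with the fold their −log10 value implies, and 21063 for replicate 2, with 21047). Steps were continued for 4 and 5 distinct low −log10 values, with 2 and 9 other distinct values interpolated. A distinct value can belong to many peaks. All replicate folds below 7.5, the lowest series-wide fold, were continued in this way and not read from matched peaks. Folds were not scaled between samples, and 0 value columns were left unmapped. Depth is unknown.

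Gene models and starts are those of RefSeq tables of GRCm38.p6, the assembly of mm10; a start is the base after the 250 bases listed before it. Overlap means at least 1 bp. Members and lists were chosen with earlier results of these data known. Named genes were all members, their neighbours, and in each list the 3 genes of highest fold and the first 2 in alphabetical order without a peak; no genes of like pattern were sought, since 2 samples of 1 condition give none. The search for TGACG and the counts by listed start beyond the planned one were added after seeing the data. All 93 list genes matched a symbol; 1 result that this rule would name is not reported here. Overlap counts and fold reading were tested on simulated data. Python 3.11.15, NumPy 2.4.6, pandas 2.3.3 and Matplotlib 3.10.9 were used.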

Additional observations from a re-analysis of the deposited data

How the results depend on the processing

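The 4 of 8 genes with a peak within 1 kb of a gene end became 7 with a window of 20 kb, 7 with listed starts only, and 2 with either the 20% or the 50% of peaks of highest fold. It was 4 to 5 with 1 replicate list alone. The 7 genes with a peak at a listed start became 2 with the 20% and 4 with the 50% of peaks of highest fold, and stayed 7 with each replicate list alone. The 91 peaks became 13 and 37 under the same limits, and 157 to 164 with 1 replicate list alone. The median over members of the highest fold was 27, with 25.9 to 27 from 1 replicate alone and 25.6 on the gene model alone. The median density was 8.16 per 100 kb, with 12 to 12.8 from 1 replicate alone and 7.08 on the gene model alone. The 34 pathway genes became 9 when only the top 20% by fold counted. Shares over all genes were not counted for the 20 kb window or for gene ends under either fold limit. Nor were they counted for listed starts with the 50% of peaks of highest fold. Such counts show only how the reported ones change with the setting. The other alternatives tried for these counts and medians gave values within 1.5 times of those reported. Among single genes, the gene model alone lowered the highest fold of Mef2b to 10.5. Of all member peaks, 85 of 91 were found in both replicates at a reciprocal overlap of 50%. No paired analysis was possible because no test between groups was run and input values are not analysed here. A fold over a constant background holds no correction for local input, and depth limits which weak peaks could be called.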

Other observations

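The stretches between each gene and its protein-coding neighbours were also examined beyond 20 kb; these neighbours fall outside the naming rule and were named after their values were seen. Upstream of Mef2a, the 137 kb to Lrrc28 held 13 series-wide peaks (9.49 per 100 kb), the strongest 44.8 kb from the gene with 42.0 and 45.2 fold (43.6 ± 2.27, SD, n = 2). Upstream of Mef2c, the 1710 kb to Cetn3 held 19 peaks (1.11 per 100 kb), the strongest 1190 kb away with 26.0 ± 1.44 fold (SD, n = 2), while the 555 kb downstream to Tmem161b held 0. The 244 kb upstream of Hdac4, up to Ndufa10, held 10 peaks. Around Hdac9 the 87.7 kb to Twist1 and the 67.7 kb to Prps1l1 held 0, so that all series-wide peaks between these neighbours lay inside Hdac9. Just outside the 20 kb window of Mef2d, 21.1 kb upstream and inside the neighbouring gene Iqgap3, a peak had 29.0 and 29.3 fold (29.1 ± 0.179, SD, n = 2), higher than any peak inside the window.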
